A study of Arabidopsis thaliana with 9 samples.

Results

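The entries described here are the mature microRNAs (miRNAs) of Arabidopsis thaliana in families numbered from miR771 to miR870, a range that holds mostly young families found in Arabidopsis and its close relatives. Within the range, miR822, miR824, miR825, miR827, miR838, miR839, miR840, miR841, miR842, miR845, miR846, miR850, miR857, miR863 and miR869 were left out. Of the 76 remaining entries, 63 had a count in at least 1 of the 9 libraries and are the members; the other 13 had 0 counts throughout. The members belong to 40 families and 48 hairpins and were chosen by name and by presence, not by any difference between genotypes. In all, 384 of the 427 entries counted in the study had counts.

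Small RNA was sequenced from leaves of se-2, chr2 and wild type (WT) plants aged 3 weeks, with 3 libraries for each. In se-2 the mutated gene is SERRATE (SE), and in chr2 it is CHR2, also called BRM, the motor subunit of a SWI/SNF chromatin remodelling complex. The labels give these genotypes by name alone, with no further detail of the alleles, and name no treatment. They do not say whether libraries came from separate plants, so the p-values below measure only the spread between these samples, which may be technical. Mature miRNA counts contain neither SE nor CHR2 transcripts nor leaf marker genes, so genotype and tissue labels were not checked.

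A plant miRNA is cut from a hairpin in a longer primary transcript by the nuclease DCL1. SE, a zinc finger protein, works with DCL1 in this step. Cutting releases a short duplex of a 5p and a 3p strand, and the strand retained by an Argonaute protein guides cleavage or repression of matching mRNAs. Conserved miRNA families occur across land plants and are often abundant, whereas young families tend to be low, to have a single hairpin and to have few or no established targets.

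The sequences of the members on which the results turn are shown first, read 5′ to 3′ from the RefSeq TAIR10.1 genome at the annotated position, with the seed (bases 2 to 8) in capitals. The first set holds the 5 members with the most counts, to show how close the miR858 pair is:
miR858a: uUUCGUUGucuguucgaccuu
miR858b: uUCGUUGUcuguucgaccuug
miR823: uGGGUGGUgaucauauaagau
miR773a: uUUGCUUCcagcuuuugucuc
miR775: uUCGAUGUcuagcagugcca

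The second set holds members called higher in se-2 than in WT: both arms of miR870 and of miR835, miR779-2, the miR833 pair and miR854. The miR833 entries share a seed, and the single miR854 sequence stands for 5 hairpins:
miR870-5p: aAGAACAUcaaauuagaaugu
miR870-3p: uAAUUUGGuguuucuucgauc
miR835-5p: uUCUUGCAuauguucuuuauc
miR835-3p: uGGAGAAGauacgcaagaaag
miR779-2: uGAUUGGAaauuucguugacu
miR833a-5p: uGUUUGUUguacucggucuagu
miR833b: uGUUUGUUgacaucggucuag
miR854a: gAUGAGGAuagggaggaggag

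The third set holds members below WT in se-2, and miR861-3p, which was the member called higher in chr2:
miR844-5p: uGGUAAGAuugcuuauaagcu
miR844-3p: uUAUAAGCcaucuuacuaguu
miR847: uCACUCCUcuucuucuugaug
miR777: uACGCAUUgaguuucguugcuu
miR830-5p: uCUUCUCCaaauaguuuagguu
miR830-3p: uAACUAUUuugagaagaagug
miR829-3p-1: aGCUCUGAuaccaaaugauggaau
miR861-3p: gAUGGAUAugucuucaaggac

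Among all 63 members, 49 were of 21 nt, 10 of 22 nt, 3 of 20 nt and 1, miR829-3p-1, of 24 nt. The share of 21 nt was 77.8%, beside 75.2% of all entries with counts. A first base U, the base that AGO1 favours, was present in 42 members (66.7%, beside 54.7% of all entries with counts). Of the 63 members, 35 lay between annotated genes, 13 in an intron on the gene's own strand, 6 in an untranslated exon and 5 in a pseudogene exon on that strand, and 4 opposite a gene. Hairpins ranged from 85 to 400 nt with a median of 186 nt. Chromosome 1 carried 26 members.

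Sequences were not all distinct. The miR854 entries a to e have the same 21 nt and lie in pseudogenes on chromosome 5, so their 5 near-identical counts are not independent and may hold the same reads. miR781a and miR781b also have the same 21 nt, on opposite strands of overlapping hairpins. miR858a (chr1:26773695-26773715, minus strand) and miR858b (chr1:26772907-26772927, plus strand) share 20 nt with a shift of 1 base, which changes the seed, so the split of reads between them is uncertain. In all, the 63 members had 58 distinct sequences and 60 distinct count profiles.

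Counts over all entries summed to 130482 to 195415 in se-2 libraries, 637283 to 908635 in chr2 libraries and 1280294 to 1588242 in WT libraries. These sums cover miRNA entries and are not the sequencing depth, which is unknown. A single read is therefore worth 5.12 to 7.66 CPM (counts scaled to a common library total) in se-2, 1.1 to 1.57 CPM in chr2 and 0.630 to 0.781 CPM in WT, and values of a few CPM in se-2 rest on 1 read. CPM below are scaled by TMM, which assumes that most entries do not change between libraries. A change is therefore relative to the average miRNA and not absolute. Late-entry scaling, used as an alternative, holds level the summed counts of 104 entries of late annotation (miR5000 and above); it moved the median log2 change of all entries in se-2 against WT from 0.11 to -2.30. In tissue samples such as these, fewer cells with a miRNA cannot be told apart from less of it per cell.

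Members held 442, 702 and 786 counts in se-2, 2109, 3065 and 1768 in chr2, and 4705, 4292 and 5181 in WT. Their share of all counts was 0.385 ± 0.041% in se-2, 0.288 ± 0.045% in chr2 and 0.334 ± 0.0074% in WT (SD, n = 3 each). With 3 against 3 libraries the smallest possible p is 0.1, so no comparison of the share could pass at 0.05. By exact two-sided permutation, p was 0.2 for se-2 against WT, 0.3 for chr2 against WT and 0.1 for chr2 against se-2. Adjusted over the 3 comparisons, the permutation p was 0.3 for each. The chr2 shares (highest 0.337%) all lay below the se-2 shares (lowest 0.339%). The members thus had a small share of the miRNA counts in every genotype, and young families outside this list were not summed.

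Within the member counts, the makeup was described for the 5 members with the most counts summed over all libraries. miR858a, miR823, miR773a, miR858b and miR775 together held 51.8% to 57.7% of member counts in se-2, 74.1% to 75.6% in chr2 and 75.5% to 77.0% in WT. The se-2 libraries did not overlap the others. WT libraries hold most of the counts, so the choice favoured members high in WT and a lower share in se-2. In se-2, miR870-5p (185 reads) and miR779-2 (144 reads) exceeded miR773a (28 reads) and miR775 (38 reads). miR773a alone made up 1.14% to 2.04% of member counts in se-2, against 12.8% to 14.3% in WT. miR858a made up 22.5% to 27.6% in se-2 and 26.1% to 28.4% in WT, which overlap.

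Detection was compared at a common total. When each library was thinned to 130482 counts, 34.2 ± 3.88 members were expected with at least 1 count in se-2, 33.6 ± 2.35 in chr2 and 35.8 ± 0.518 in WT (SD, n = 3 each). With at least 3 counts the values were 25.1 ± 1.36 in se-2, 17.1 ± 1.32 in chr2 and 19.3 ± 0.608 in WT. At a single count the genotypes were close, and at 3 counts se-2 had the most members. Each miR854 entry counts as a member here, though all have the same sequence and may hold the same reads. They had 3 to 6 reads in each se-2 library and 5 to 12 in each WT library before thinning. At 3 counts this sequence therefore raised the se-2 number more than once. Without thinning, 17 members had 0 counts in all 3 se-2 libraries, against 3 in chr2 and 4 in WT, in libraries with far fewer counts in se-2.

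**Figure D1:**
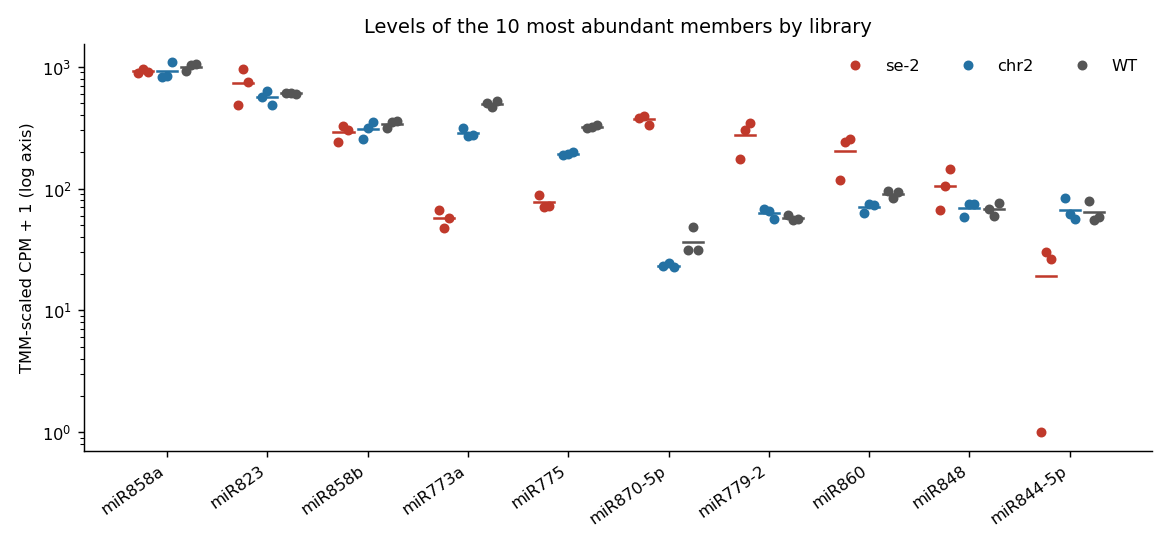
TMM-scaled CPM plus 1 (log axis) of the 10 members with the highest mean level, in each library of se-2, chr2 and WT; bars are means of 3 libraries. miR858a lies at 825.9 to 1084 CPM in all 9 libraries, while miR773a and miR775 are lower in se-2 and miR870-5p and miR779-2 higher, the last falling to a log2 change of -0.08 with late-entry scaling.

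Among the most abundant members, those against MYB transcription factors and the methyltransferase gene CMT3 did not pass the test in se-2 against WT with TMM, while those against MET2 and a galactosyltransferase gene were lower. miR858a, which limits MYB factors of the phenylpropanoid pathway, had 889, 953 and 905 CPM in se-2, 825.9, 843.5 and 1084 CPM in chr2 and 923, 1027 and 1055 CPM in WT. Its log2 change in se-2 against WT was -0.13 (SE 0.20) by edgeR's quasi-likelihood test and was not called (adjusted p 0.55). miR858b had 240.5, 325 and 302 CPM in se-2, 255, 312 and 353 CPM in chr2 and 315, 348 and 356 CPM in WT. The libraries of the 3 genotypes overlapped for both, but late-entry scaling called both lower in se-2 (-2.53 and -2.62), and so did DESeq2 size factors (-0.49 and -0.58).

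miR823, whose target CMT3 adds DNA methylation outside CG sites, had 481, 959 and 746 CPM in se-2, 561, 627 and 488 CPM in chr2 and 608, 609.9 and 596 CPM in WT. The se-2 libraries spread on both sides of the WT values. Its log2 change in se-2 was 0.28 (SE 0.21, adjusted p 0.24 by edgeR), and it was called higher without se-2 replicate 1 (0.49) but lower with late-entry scaling (-2.10), and its value was -0.08 with DESeq2 size factors.

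miR773a (chr1:13067313-13067333, plus strand, intergenic), which targets the DNA methyltransferase gene MET2, had 65.6, 46.5 and 56.2 CPM in se-2, 313, 271 and 273 CPM in chr2 and 504, 469.6 and 521 CPM in WT. All se-2 libraries lay below all chr2 libraries, and these below all WT libraries. In se-2 it averaged 56.1 ± 9.55 CPM, against 498 ± 26.2 CPM in WT (SD, n = 3 each), 8.94-fold lower (log2 -3.16, SE 0.27, adjusted p 2.7e-11 by edgeR). miR775 (chr1:29422546-29422565, plus strand, intergenic), which targets a galactosyltransferase gene of cell wall formation, had 87.5, 69.7 and 71.5 CPM in se-2, 188, 192 and 199 CPM in chr2 and 315, 318 and 331 CPM in WT. The same order of genotypes held without overlap. Its mean was 4.25-fold lower in se-2 than in WT (log2 -2.09, SE 0.26, adjusted p 3.3e-08 by edgeR).

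The comparison of se-2 with WT asks how these miRNAs depend on SE. In it, 33 distinct member profiles passed the filter on low counts. By edgeR with Benjamini-Hochberg adjustment over all 270 tested entries, 14 were called higher, beside 42.2% of all entries, and 10 lower, beside 30.4%. These shares are close to the background and are no result about the members. The median log2 change of the 33 was 0.43, beside 0.11 over all entries, -0.37 over conserved families and 2.17 over the late entries. With DESeq2 size factors the split was 11 higher and 14 lower (all entries 35.6% and 43.7%), and with late-entry scaling 3 higher and 22 lower (all entries 5.56% and 71.1%). By DESeq2's test the calls were 11 higher and 14 lower (all entries 35.2% and 41.5%), and by limma-voom 14 and 10 (43% and 28.5%).

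Counts over tested members depend on the filter, which asks for about 12.3 CPM in at least 3 libraries. Of the 33 profiles, 10 did not pass without their se-2 libraries, and 9 of these 10 were called higher. These 9 were miR870-3p, miR835-3p, miR835-5p, miR833b, miR862-5p, miR853, miR854a, miR854b and miR854d, so being tested already favoured their higher call. Without their WT libraries 5 did not pass, and 4 of these, miR829-3p-1, miR830-5p, miR830-3p and miR777, were called lower, which the filter likewise favoured. miR852 is in both groups. The 19 that passed without either genotype had 5 higher and 6 lower calls and a median log2 of -0.13. Over all 63 members, tested or not, mean CPM in se-2 was above WT for 29 and below it for 31.

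**Figure D2:**
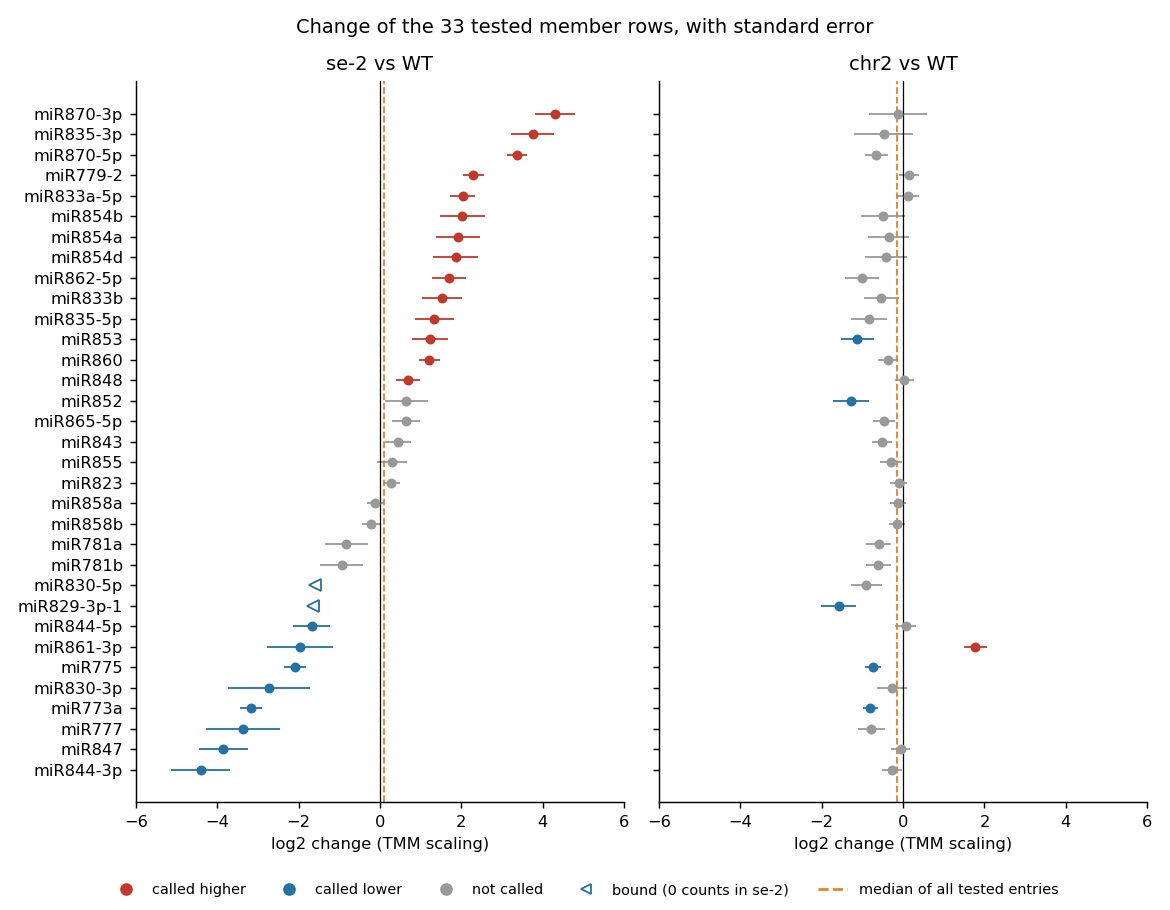
Log2 change with standard error of the 33 tested member profiles in se-2 against WT (left) and chr2 against WT (right), with TMM scaling; colours mark edgeR calls and the dashed line the median of all 270 tested entries. Changes span -4.41 to 4.31 in se-2, where late-entry scaling leaves 3 of the 14 higher calls, and in chr2 miR861-3p at 1.78 stands apart from the rest; open triangles are bounds for members with 0 counts in se-2.

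Both arms of miR870 were higher in se-2 (chr5:21395604-21395624, minus strand for 5p, intergenic). miR870-5p had 379, 395.1 and 332 CPM in se-2, 22, 23.5 and 21.5 CPM in chr2 and 30.0, 47 and 30.1 CPM in WT, so each se-2 library was above every other library. These values stand for 52, 68 and 65 reads in se-2, 16, 24 and 12 in chr2 and 40, 55 and 42 in WT, where the libraries hold many more counts in all. The mean was 10.3-fold higher in se-2 than in WT (log2 3.37, SE 0.25, adjusted p 1.9e-12 by edgeR), and late-entry scaling kept it higher (0.97). miR870-3p had 36.4, 58.1 and 76.7 CPM in se-2, 2.74, 3.91 and 0 CPM in chr2 and 2.25, 3.42 and 2.87 CPM in WT, a log2 change of 4.31 (SE 0.49, 1.95 with late-entry scaling). No target is given here for miR870.

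miR835-3p (chr1:28544471-28544491, minus strand, in an untranslated exon of AT1G76065 on the same strand) had 29.2, 40.7 and 56.2 CPM in se-2, 1.37, 2.94 and 1.79 CPM in chr2 and 1.5, 1.71 and 5.73 CPM in WT. The 3 se-2 libraries lay above the other 6, though they hold only 4, 7 and 11 reads. The log2 change in se-2 was 3.75 (SE 0.53, adjusted p 3.2e-07 by edgeR) and 1.38 with late-entry scaling; without WT replicate 3 it was 4.54. Together with the miR870 arms it completed the 3 members called higher under both scalings. Of these, miR835-3p and miR870-3p passed the filter only through their se-2 libraries, where they are high, so that being tested already favoured a higher call. Its partner miR835-5p had 14.6, 23.2 and 56.2 CPM in se-2, 5.49, 9.78 and 5.38 CPM in chr2 and 11.3, 17.1 and 11.5 CPM in WT, with overlap between se-2 and WT. The 5p call (log2 1.33) was lost without se-2 replicate 3 (adjusted p 0.44 by edgeR), and its value was -1.03 with late-entry scaling. This call also ended with DESeq2 size factors (adjusted p 0.059 by edgeR) and by DESeq2's test (adjusted p 0.091).

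The next members by size were called higher with TMM and were at or below WT with late-entry scaling. miR779-2 (chr2:9560866-9560886, plus strand, intergenic) had 175, 302 and 348 CPM in se-2, 67.2, 64.6 and 55.6 CPM in chr2 and 60.1, 54.7 and 55.2 CPM in WT, a log2 change in se-2 of 2.30 (SE 0.26) with TMM and -0.08 with late-entry scaling. miR833a-5p (chr1:29525204-29525225, plus strand, in an intron of AT1G78476) had 109, 87.2 and 86.9 CPM in se-2, 23.3, 20.5 and 32.3 CPM in chr2 and 21, 27.4 and 20.1 CPM in WT, a change of 2.03 (SE 0.31) and -0.36 with late-entry scaling. In both, se-2 libraries did not overlap the others on the TMM scale. miR833b, from a hairpin on the opposite strand of the same site and with the same seed, was at 1.52 and -0.85 under the 2 scalings; without se-2 replicate 2 its call was lost (adjusted p 0.051 by edgeR).

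The miR854 sequence, derived from transposon-like repeats, had 21.9, 23.2 and 30.7 CPM in se-2, 2.74, 3.91 and 7.18 CPM in chr2 and 4.5, 10.3 and 4.3 CPM in WT in the miR854b entry. Its se-2 values were above all others and stand for 3, 4 and 6 reads. The 3 distinct profiles miR854b, miR854a and miR854d had log2 changes of 2.02, 1.91 and 1.86 with TMM and of -0.33, -0.45 and -0.50 with late-entry scaling, and count as 1 sequence. The miR854a entry had 21.9, 23.2 and 25.6 CPM in se-2, 4.12, 3.91 and 7.18 CPM in chr2 and 5.25, 9.41 and 4.3 CPM in WT, and the miR854d entry 29.2, 17.4 and 25.6 CPM in se-2, 2.74, 4.89 and 7.18 CPM in chr2 and 6.76, 9.41 and 3.58 CPM in WT, so the copies showed the same pattern. miR855, also listed as transposon-like, was at 0.29 and not called.

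The other members called higher with TMM were miR862-5p, miR853, miR860 and miR848. Of these, miR862-5p and miR853 did not pass the filter without se-2, where they are high. miR860 had 117, 238 and 256 CPM in se-2, 61.7, 73.4 and 71.8 CPM in chr2 and 93.8, 82.1 and 93.2 CPM in WT, with a log2 change of 1.21 (SE 0.26) that became -1.17 with late-entry scaling. miR848 had 65.6, 105 and 143 CPM in se-2, 57.6, 73.4 and 73.6 CPM in chr2 and 66.8, 58.2 and 74.5 CPM in WT. The miR848 groups overlapped, its change was 0.69 with TMM and -1.70 with late-entry scaling, and the call was lost without se-2 replicate 2 or 3, chr2 replicate 3 or WT replicate 1 or 2 (adjusted p 0.057 to 0.33 by edgeR). The miR848 call also ended with DESeq2 size factors (log2 0.32, adjusted p 0.30 by edgeR) and with the replicate block (adjusted p 0.059 by edgeR). By DESeq2's test its adjusted p was 0.30. miR862-5p had 36.4, 34.9 and 40.9 CPM in se-2, 5.49, 4.89 and 7.18 CPM in chr2 and 11.3, 12 and 11.5 CPM in WT. miR853 had 36.4, 34.9 and 30.7 CPM in se-2, 8.23, 6.85 and 3.59 CPM in chr2 and 12.8, 11.1 and 18.6 CPM in WT. In both the se-2 libraries were the highest. miR862-5p was at 1.69 and miR853 at 1.23 with TMM, and at -0.69 and -1.16 with late-entry scaling. The miR853 call was lost without se-2 replicate 2 (adjusted p 0.061 by edgeR). It also ended with DESeq2 size factors (adjusted p 0.073 by edgeR) and by DESeq2's test (adjusted p 0.094).

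Among the members lower in se-2, both arms of miR844 (chr2:9942261-9942281, minus strand for 5p, in an intron of AT2G23348) fell. miR844-5p had 0, 29.1 and 25.6 CPM in se-2, 82.3, 60.7 and 55.6 CPM in chr2 and 78.8, 53.9 and 57.3 CPM in WT. All se-2 values were below those of the other genotypes, and 1 se-2 library had none (log2 -1.68, SE 0.46, adjusted p 0.0019 by edgeR). miR844-3p had 0, 0 and 5.11 CPM in se-2, 35.7, 43.1 and 32.3 CPM in chr2 and 44.3, 45.3 and 46.6 CPM in WT, which in se-2 is 1 read in all, and its log2 change was -4.41 (SE 0.73). At the WT share of counts, 20.6 reads of miR844-3p would have fallen in the 3 se-2 libraries. Without se-2 replicate 3, miR844-3p had 0 counts in se-2, and so had miR777 and miR830-3p, whose single se-2 read also came from that library.

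miR847 (chr1:2165675-2165695, plus strand, intergenic), which targets the auxin repressor gene IAA28, had 7.29, 5.81 and 0 CPM in se-2, 60.4, 48.9 and 64.6 CPM in chr2 and 58.6, 68.4 and 51.6 CPM in WT. Its 2 reads in se-2 compare with 26.8 at the WT share, while chr2 and WT libraries overlapped. The log2 change in se-2, which was -3.18 without se-2 replicate 3, was -3.85 (SE 0.61, adjusted p 1.8e-06 by edgeR). miR777 (chr1:26638083-26638104, plus strand, in an untranslated exon of AT1G70650) had 0, 0 and 5.11 CPM in se-2, 11, 16.6 and 8.97 CPM in chr2 and 22.5, 24.8 and 19.3 CPM in WT, a log2 change of -3.38 (SE 0.91). Its se-2 libraries lay below the rest.

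Some members had no read in se-2 at all. miR829-3p-1 (chr1:11834094-11834117, minus strand, intergenic) had 0 counts in the se-2 libraries, 9.6, 5.87 and 1.79 CPM in chr2 and 19.5, 13.7 and 21.5 CPM in WT. Against a floor of 3 counts over the group it was at least 3.11-fold lower in se-2 than in WT. miR830-5p (chr1:4820473-4820494, minus strand, intergenic) had 0 counts in se-2, 5.49, 11.7 and 10.8 CPM in chr2 and 13.5, 19.7 and 20.8 CPM in WT, and was at least 3.02-fold lower. At the WT share, 8.39 reads of miR829-3p-1 and 8.15 of miR830-5p would have fallen in se-2. Neither was called in every fit that left out a library, since miR829-3p-1 did not pass the filter without WT replicate 1 or 3, nor miR830-5p without WT replicate 2 or 3. The partner miR830-3p was at 0, 0 and 5.11 CPM in se-2, 8.23, 13.7 and 12.6 CPM in chr2 and 14.3, 10.3 and 17.2 CPM in WT, and its call (log2 -2.73) was lost without se-2 replicate 1 or 2 (adjusted p 0.062 and 0.095 by edgeR).

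Of the 10 lower calls in se-2, all were also lower with late-entry scaling, as its downward shift fixes in advance, and with DESeq2 size factors. The latter also shift changes downward, with a median log2 over all entries of -0.24 against 0.11 with TMM, which favoured keeping these calls. The members not called with TMM were miR858a, miR858b, miR823, miR855, miR843, miR865-5p, miR852, miR781a and miR781b, with log2 changes between -0.94 and 0.65.

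**Figure D3:**
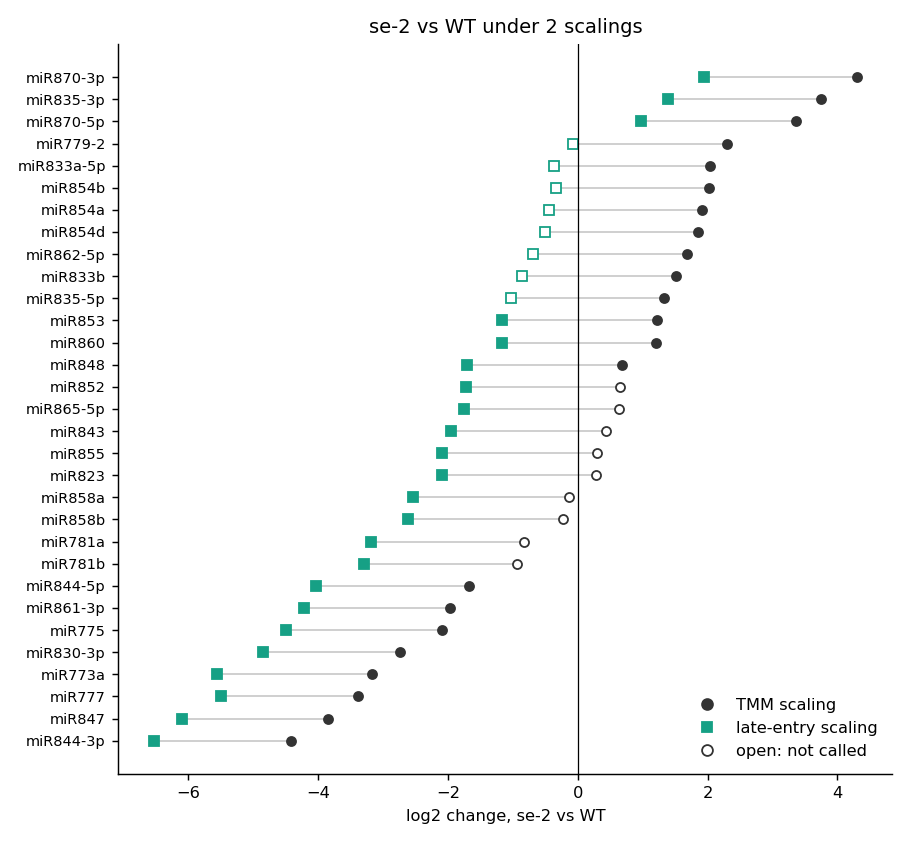
Log2 change in se-2 against WT of the 31 tested member profiles with reads in se-2, with TMM scaling (circles) and late-entry scaling (squares); open symbols were not called by edgeR. Only miR870-3p, miR835-3p and miR870-5p stay on the higher side with a call under both, at 1.95, 1.38 and 0.97 with late-entry scaling.

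By target role, lists chosen from general knowledge with earlier results known gave small counts, to be read against 42.2% higher and 30.4% lower over all entries. Of 4 members against chromatin enzymes, 2 were tested in se-2 and 1, miR773a, was lower. The MYB list had 2 of 3 members tested, miR858a and miR858b, and neither was called. Of the F-box list, 3 of 6 were tested and miR833a-5p and miR833b were called higher, a direction that late-entry scaling turned without a call; miR843 was at 0.43. Of the single regulators, all 4 tested members (miR775, miR844-5p, miR844-3p and miR847) were lower, and both miR844 entries come from 1 hairpin. The transposon-like list had 3 higher calls of 4 tested, all from the miR854 sequence. The only transporter member with a count, miR780-2, was not tested.

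Position and hairpin length were set beside the se-2 calls as a description, with no test. Of 7 tested profiles in exons on the gene's own strand, 6 were higher with TMM, beside 42.2% of all entries, and 1, miR777, was lower, beside 30.4%. Of the 6, 3 are miR854 copies, and these and both miR835 arms did not pass the filter without se-2, so the count was favoured by the filter. Intronic profiles on that strand had 4 higher and 2 lower of 8, and intergenic ones 3 higher and 7 lower of 16. The filter favoured these counts too. Among the higher calls, the intronic miR862-5p and miR853 and the intergenic miR870-3p did not pass without se-2. Among the intergenic lower calls, miR829-3p-1, miR830-5p and miR830-3p did not pass without WT. Both arms of miR844, miR830 and miR870 are counted. Hairpins of profiles called higher had a median of 191 nt, of those called lower 185 nt, and across the 33 profiles hairpin length and log2 change had a Spearman rho of 0.056, with arms of a hairpin sharing its length.

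The comparison of chr2 with WT asks how they depend on CHR2. A single member was called higher there, and most did not pass the test. miR861-3p (chr3:17838154-17838174, minus strand, intergenic) had 0, 0 and 10.2 CPM in se-2, 63.1, 52.8 and 48.4 CPM in chr2 and 13.5, 18 and 16.5 CPM in WT. Each chr2 library was above every WT library, and 2 of the se-2 libraries had none. Its mean was 54.8 ± 7.52 CPM in chr2 and 16 ± 2.27 CPM in WT (SD, n = 3 each), 3.42-fold higher (log2 1.78, SE 0.27, adjusted p 9.0e-06 by edgeR). It was called in all 20 alternatives, between 1.41 and 2.13. No role is given here for miR861.

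In se-2 against WT the same entry was at -1.97 (adjusted p 0.031 by edgeR), a call on 2 reads that was lost without se-2 replicate 1 or 2 (adjusted p 0.11 and 0.16). Directly between the mutants, chr2 was 13.4-fold higher than se-2 (log2 3.74, SE 0.65, adjusted p 8.9e-06 by edgeR). The other arm, miR861-5p, had 0, 0 and 5.11 CPM in se-2, 11, 4.89 and 3.59 CPM in chr2 and 0.751, 0.855 and 5.02 CPM in WT and was too low to test. Its chr2 values overlapped WT.

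The hairpins of miR861 and miR870 are printed because they held the clearest changes of chr2 and of se-2. They are on the minus strand of TAIR10.1, at chr3:17838135-17838266 and chr5:21395545-21395629, with the 5p and then the 3p arm in capitals:
miR861 hairpin: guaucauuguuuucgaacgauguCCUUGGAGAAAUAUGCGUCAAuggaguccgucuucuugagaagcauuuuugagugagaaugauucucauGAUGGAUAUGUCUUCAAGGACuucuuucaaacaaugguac
miR870 hairpin: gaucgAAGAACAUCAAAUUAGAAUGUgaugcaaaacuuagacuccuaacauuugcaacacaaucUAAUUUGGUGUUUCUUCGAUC

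By edgeR, 1 of 33 tested profiles was higher in chr2 than in WT, beside 10.4% of all 270 entries, and 5 were lower, beside 19.6%. Their median log2 change was -0.46, beside -0.15 over all entries and -0.04 over conserved families. The lower members were miR829-3p-1 (log2 -1.58), miR852 (-1.27), miR853 (-1.12), miR773a (-0.80) and miR775 (-0.74). miR773a averaged 286 ± 23.6 CPM in chr2 and 498 ± 26.2 CPM in WT, and miR775 193 ± 5.7 CPM in chr2 and 322 ± 8.4 CPM in WT (SD, n = 3 each). For miR852, chr2 had 2.74, 6.85 and 7.18 CPM and WT 12.8, 11.1 and 17.2 CPM, and for miR853 chr2 had 8.23, 6.85 and 3.59 CPM and WT 12.8, 11.1 and 18.6 CPM. All 5 were without overlap between chr2 and WT libraries. Over all 63 members, called or not, 16 were lower in chr2 without overlap and 3 higher, so this does not set the 5 apart.

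The lower calls in chr2 depended on the scaling and on single libraries. Calls were 1 higher and 14 lower with late-entry scaling (all entries 4.44% and 39.6%), and with DESeq2 size factors 1 and 3 (17% and 13.7%). Without miR8175, an entry that alone holds much of the late sum, late-entry scaling gave 0 lower calls by edgeR (all entries 9.26%), and 2 at an unadjusted p below 0.05. Lower calls numbered 0 by edgeR without chr2 replicate 3 (4 at an unadjusted p below 0.05; all entries 10.3%). They numbered 2 without chr2 replicate 1 or 2 (all entries 12% and 13.1%), 1 without WT replicate 1 or 3 (10.9% and 14.9%), and 3 without se-2 replicate 2 (13.6%). By DESeq2's test on all libraries there were 2 (all entries 11.5%) and by limma-voom 5 (20%). Of the fits that left out a library, miR773a lost its call in that without chr2 replicate 3 (adjusted p 0.060 by edgeR), and it also lost it with late-entry scaling without miR8175 (0.13) and with a minimum of 10 counts in every library of a genotype (0.051). miR775 lost its call without chr2 replicate 1 or 3 or WT replicate 1 or 3 (adjusted p 0.073 to 0.084 by edgeR). It also lost it with late-entry scaling without miR8175 (0.20) and with the minimum of 10 counts in every library of a genotype (0.105). The miR829-3p-1 call was lost without chr2 replicate 2 or 3 (adjusted p 0.063 and 0.082 by edgeR), and the entry was not tested without WT replicate 1 or 3. The calls of miR852 and miR853 were lost without se-2 replicate 2, any chr2 library or WT replicate 1 or 3 (adjusted p 0.081 to 0.34 by edgeR).

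The abundant members that did not pass in chr2 were miR858a (log2 -0.13, adjusted p 0.67 by edgeR), miR823 (-0.11, adjusted p 0.74) and miR858b (-0.15, adjusted p 0.62). With DESeq2 size factors these 3 values were 0.05, 0.09 and 0.04. The miR870-5p change was -0.66 (SE 0.29, adjusted p 0.081 by edgeR), with no overlap between chr2 and WT libraries, and it was called lower with late-entry scaling (-1.01). miR844-5p and miR847, low in se-2, were at 0.06 and -0.05 in chr2; with late-entry scaling miR844-5p was at -0.30. A miss of the threshold does not show that these levels were equal.

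Set directly against se-2, chr2 had 10 of 33 tested profiles higher, beside 33% of all entries, and 17 lower, beside 47.4%, with a median log2 of -0.65 (all entries -0.51). These comparisons share libraries with those above and are not separate evidence. The filter weighed on this split, since all 10 profiles that did not pass without se-2, among them miR870-3p and miR835-3p, were called lower. The 23 that did pass had 10 higher and 7 lower calls and a median log2 of 0.22. The 19 that passed without either se-2 or WT had 6 higher and 7 lower calls and a median of 0.0012. The largest differences with chr2 higher were miR844-3p (log2 4.14, SE 0.77), miR847 (3.79, SE 0.62) and miR861-3p, apart from miR830-5p and miR829-3p-1, which had 0 counts in se-2 and were at least 1.60-fold and 1.02-fold higher. The largest with chr2 lower were miR870-3p (-4.43, SE 0.55), miR835-3p (-4.22, SE 0.61) and miR870-5p (-4.02, SE 0.28), which were also called lower with late-entry scaling. With that scaling the split was 19 higher and 3 lower (all entries 59.3% and 11.5%), and with DESeq2 size factors 12 and 14 (42.2% and 37.8%). Without chr2 replicate 2 or 3, the miR870-3p difference was -5.01 or -3.75.

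Several smaller calls between chr2 and se-2 rested on single libraries. miR848 (-0.65) lost its call in 8 of the 9 fits that left out 1 library, all but the fit without se-2 replicate 1. miR777 (2.60) and miR830-3p (2.46) lost theirs without se-2 replicate 1 or 2 or chr2 replicate 2. miR843, miR852 and miR865-5p each lost theirs in 3 to 5 such fits, and miR835-5p without se-2 replicate 3 (adjusted p 0.085 by edgeR). The miR829-3p-1 call was lost in each of the fits without a se-2 library and without chr2 replicate 1 or 2. Without WT replicate 1 or 3 this entry did not pass the filter. Its call also ended with total counts (adjusted p 0.051 by edgeR) and by limma-voom (adjusted p 0.12).

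The share of 5p reads in a hairpin does not depend on scaling. Only miR833a and miR870 had at least 10 reads over both arms in every library. For miR870, 5p reads were 86.6 ± 5.02% in se-2, 91.5 ± 7.50% in chr2 and 92.5 ± 1.05% in WT (SD, n = 3 each). Neither hairpin passed in any of the 6 comparisons made (exact two-sided permutation, adjusted p of at least 0.6; the lowest raw p was 0.1, for miR870 in se-2 against WT, the smallest possible). For miR833a the shares were 88.2 ± 15.4% in se-2, 82.4 ± 12.7% in chr2 and 78.3 ± 12.7% in WT.

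The arms of miR835 were summed over libraries because reads were few. Its 5p share was 43.6% in se-2 (17 of 5p and 22 of 3p reads, exact 95% binomial interval 27.8% to 60.4%), 77.3% in chr2 (17 and 5 reads, 54.6% to 92.2%) and 81.0% in WT (51 and 12 reads, 69.1% to 89.8%). The intervals of se-2 and WT did not overlap, with no test over samples, and such intervals cover counting error only. In miR844, 5p and 3p reads were 10 and 1 in se-2, 153 and 88 in chr2, and 248 and 177 in WT. For miR861 they were 1 and 2 in se-2, 15 and 127 in chr2 and 9 and 62 in WT, so the 3p arm held most reads in chr2 and WT.

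**Figure D4:**
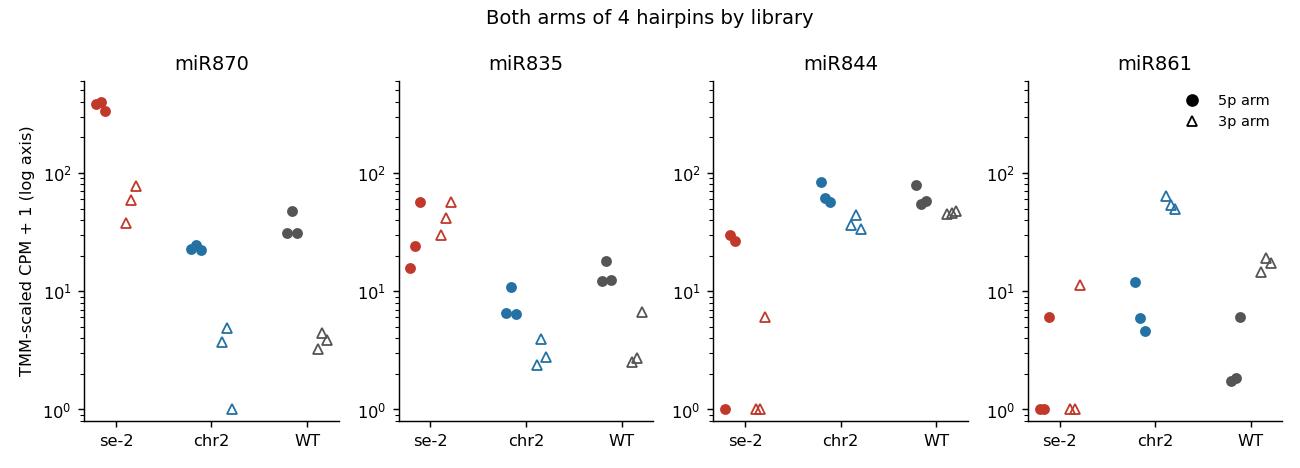
TMM-scaled CPM plus 1 (log axis) of the 5p arm (filled circles) and 3p arm (open triangles) of miR870, miR835, miR844 and miR861 in each library. In se-2 both miR870 arms are above WT and both miR844 arms below it, and in chr2 miR861-3p lies at 48.4 to 63.1 CPM against 13.5 to 18 CPM in WT.

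The remaining members were low. Of the 63, 28 were not tested, and 12 had under 10 reads over all 9 libraries. miR829-5p had 1 read in se-2, 1 in chr2 and 14 in WT, and miR829-3p-2 had 0 in se-2, 4 in chr2 and 9 in WT, so all 3 entries of that hairpin had most of their reads in WT, the genotype with the most counts in all. miR779-1, from the same hairpin as miR779-2, had 9 reads in se-2, 13 in chr2 and 37 in WT, fewer than the 144, 146 and 221 of its partner in the same order. Among the others not tested, miR851-5p had no read in se-2, 1.37, 0.978 and 0 CPM in chr2 and 6.76, 5.99 and 4.3 CPM in WT. miR868-5p had no read in se-2, 6.86, 8.81 and 3.59 CPM in chr2 and 1.5, 6.84 and 5.02 CPM in WT. When the filter was dropped, miR862-3p was also called higher in se-2 against WT (36.4% of all entries were higher there and 20.7% lower), and miR851-5p lower in chr2 against WT (10.3% and 11.1%).

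Some members with known targets were at or near the limit of detection in these leaves. miR828, which targets MYB factors and the TAS4 transcript, had 1 read in chr2 and 1 in WT. miR778, which targets the histone methyltransferase gene SUVH6, had 1 read in chr2. miR826a, reported against the glucosinolate gene AOP2, had 3 reads in chr2, 1 in each library, and none elsewhere. miR774a and miR859, against F-box genes, had 10 and 6 reads in all. The other members not tested, with 1 to 58 reads over the 9 libraries, were miR773b-5p, miR776, miR782, miR831-3p, miR833a-3p, miR834, miR837-3p, miR837-5p, miR849, miR864-3p, miR864-5p, miR865-3p, miR866-3p, miR866-5p and miR868-3p. The entries with 0 counts in all 9 libraries were miR771, miR773b-3p, both arms of miR774b, miR780-1, miR826b, miR831-5p, both arms of miR832, miR836, miR851-3p, miR856 and miR867.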

How the data were processed

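The authors deposited whole-number counts per mature miRNA for each library, with no normalization; the labels' protocols describe gel selection of RNA between 19 and 24 nt, adapter ligation and amplification. Per the submitters' processing notes, Bowtie 1.1.2 and TAIR10 were used. How reads were counted, against which list of miRNAs, and what became of reads with several matches is not given in the sources used here. Positions and sequences were read from RefSeq TAIR10.1, in which 426 of 427 entry names and all members matched.

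Genotypes come from the sample titles. Identical count profiles were kept once (368), and filterByExpr left 270. edgeR 4.0.16 (quasi-likelihood, robust, TMM; R 4.3.3, limma 3.58.1) was fitted to all 9 libraries with genotype as the only term, with Benjamini-Hochberg adjustment over all 270 entries and a limit of 0.05. Where a genotype had 0 counts, a fold is a bound against 3 counts over the group. Shares and arm balance used exact permutation tests (SciPy 1.17.1). The 20 alternatives covered scaling, filters, tests (DESeq2 1.42.0, limma-voom), samples, a replicate block and leaving out each library. No replicate pair agreed within sampling noise (chi-square of 2.96 to 102 per degree of freedom).

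All members may be named; values in every library are given for the 10 most abundant and for called members without overlap with the 8 largest changes in each direction, and some others chosen after their values were seen. Members and lists were chosen with earlier results of these data known.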

Additional observations from a re-analysis of the deposited data

How the results depend on the processing

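Limits: se-2 libraries hold few counts, so folds of members with under 10 reads there are imprecise and cannot be refined at this depth; no scaling is known to be right, and the late entries may themselves change. Same-numbered libraries deviated with correlations of -0.21 to 0.08, and differently numbered ones with -0.17 to 0.29. The labels do not say whether the numbers pair libraries, and these values cannot exclude it. With the replicate block, calls were 13 higher and 10 lower in se-2 against WT, 1 and 4 in chr2 against WT, and 10 and 16 in chr2 against se-2. Over all 270 entries they were 108 and 78, 26 and 47, and 86 and 127, in the same order.

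In se-2 against WT, with 14 higher and 10 lower calls and a median of 0.43, late-entry scaling gave 3, 22 and -1.96, and without miR8175 3, 21 and -1.62. Over all 270 entries these scalings called 15 higher and 192 lower, and 28 and 182. Higher calls were 8 with a minimum of 10 counts in every library of a genotype (91 of all 246 entries). Lower calls were 6 with only 2 genotypes in the fit (76 of all 259 entries). The median was 0.072 with DESeq2 size factors and with DESeq2's test, -0.0074 with no filter, 0.19 with the 10-count filter, 0.66 with 2 genotypes and 0.16 with a single entry per mature sequence. Leaving out each library gave 11 to 15 higher, 8 to 10 lower and medians of 0.34 to 0.56. Over all 273 to 281 entries of these fits, 105 to 121 were higher and 73 to 86 lower.

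In chr2 against WT, with 1 higher and 5 lower calls and a median of -0.46, the higher call was always 1, beside 12 to 48 over all entries. Lower calls were 3 with DESeq2 size factors, with total counts and with 2 genotypes (37 of 270, 35 of 270 and 34 of 248 over all entries). They were 14 with late-entry scaling (107 of 270) and 0 without miR8175 (25 of 270, and 2 members at an unadjusted p below 0.05 by edgeR). The 10-count filter gave 1 (30 of 246) and DESeq2's test 2 (31 of 270). The medians were -0.26 with DESeq2 size factors and with DESeq2's test, -0.82 with late-entry scaling, -0.11 without miR8175, -0.13 with no filter, -0.29 with the 10-count filter, -0.25 with 2 genotypes and -0.26 with a single entry per sequence. Leaving out each library gave 0 to 5 lower calls (29 to 53 over all 273 to 281 entries) and medians of -0.47 to -0.096.

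In chr2 against se-2, with 10 higher and 17 lower calls and a median of -0.65, late-entry scaling gave 19, 3 and 1.37, and without miR8175 20, 3 and 1.76. Over all 270 entries these scalings called 160 higher and 31 lower, and 175 and 21. Lower calls were 10 with the 10-count filter (99 of all 246 entries), and 2 genotypes gave 6 higher and 10 lower (87 and 106 of all 226). The medians were -0.093 with DESeq2 size factors, -0.095 by DESeq2's test, 0.15 with no filter, -0.10 with the 10-count filter and -0.26 with a single entry per sequence. Leaving out each library gave 7 to 10 higher, 13 to 18 lower and medians of -0.87 to -0.49. Over all 273 to 281 entries of these fits, 79 to 102 were higher and 106 to 132 lower.

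Of the named members, 25 values that were called in at least 1 of the 2 fits compared changed direction, all under late-entry scaling with or without miR8175; the cause was not tested. A further 50 values called in neither fit changed sign, of miR823, miR858a, miR858b, miR779-2, miR844-5p and miR848, under these and other alternatives. In se-2 against WT the 25 included miR779-2 (-0.076), miR833a-5p (-0.36), miR854b (-0.33), miR854a (-0.45), miR854d (-0.50), miR823 (-2.10), miR848 (-1.70) and miR860 (-1.17), and without miR8175 miR833a-5p (-0.018), miR854b (-0.0055), miR854a (-0.12), miR854d (-0.17), miR823 (-1.79), miR848 (-1.38) and miR860 (-0.86). In chr2 against se-2 they included miR823 (1.63), miR848 (1.37) and miR860 (0.43), and without miR8175 miR853 (0.047), miR854d (0.11), miR854a (0.11), miR779-2 (0.27), miR823 (2.04), miR848 (1.76) and miR860 (0.83). The other values of named members comprised 986 with the same direction and call, 90 that lost the call and 19 that gained it.

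The summed share kept its direction throughout. Differences in 5p share, in percentage points, ranged when each library was left out from -3.26 to 11.4 (miR833a, chr2 against WT), -14.5 to 1.54 (miR833a, chr2 against se-2) and -5.21 to 1.93 (miR870, chr2 against WT). A minimum of 20 counts over both arms left no hairpin. Detection at 3 counts in place of 1, with every miR854 entry counted, gave 25.1 members in se-2, 17.1 in chr2 and 19.3 in WT.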
